A study of Mus musculus with 12 samples.

Results

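The proteasome genes of mouse resting B (RB) cells were followed across 6 stimulation conditions on 12 microarrays. The members were all genes on the array whose symbol is Psma, Psmb, Psmc, Psmd or Psme and a number, with the 3 immunoproteasome genes Psmb8, Psmb9 and Psmb10 left out, and each gene was given by its brightest probe. This rule, which uses names and no measured value, took in 41 of the 50090 genes of the array, on 56 probes, and all 41 carried the same symbol in RefSeq. One of them, Psmc3ip, shares the letters but encodes a partner of the recombinases of meiosis and is no part of the proteasome. It was kept under the rule and is described apart from the 40 others. Of the 41 genes, 38 could be tested (37 without Psmc3ip), and all 38 were well above background on all 12 arrays.

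RNA came from RB cells of spleens of BALB/c mice, given by the labels as female and 6 weeks old, and all cells were harvested after 4 h in culture. The cells had been prepared by removing CD43-bearing cells, which takes out T cells, plasma cells and activated B cells. Each of the 6 groups had 2 arrays: unstimulated cells, cells given Pam2CSK4 (a synthetic lipopeptide that activates Toll-like receptor 2), cells given antibody to CD86 (a costimulatory protein on the B cell surface), cells given both (TLR2.CD86), cells given antibody to CD40 (the receptor through which helper T cells activate B cells) and cells given anti-CD40 with Pam2CSK4. The paper speaks of 2 biological replicates for its microarray data. Neither it nor the labels say whether both samples of a group came from separate mice or cultures. The p-values measure the spread between these samples, which may be in part technical.

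The proteasome is the barrel-shaped protease that degrades proteins tagged with ubiquitin. Its core, the 20S particle, is built of stacked rings of alpha subunits, which form the gate, and of beta subunits, of which Psmb5, Psmb6 and Psmb7 carry the proteolytic sites. The 19S particle caps the core: its ATPases (Psmc genes) unfold the substrate, its base subunits bind ubiquitin, and its lid, which holds the deubiquitinase Psmd14, strips ubiquitin off. Other caps, encoded by the Psme genes, open the gate without need of ubiquitin. In B cells the proteasome also cuts the peptides that are presented on MHC class I and degrades inhibitors of NF-kB, the transcription factor that CD40 and Toll-like receptors switch on.

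By role, the tested genes were 7 of the alpha ring, 7 of the beta ring, 6 ATPases, 2 base subunits without ATPase activity, 8 lid subunits, 3 chaperones of 19S assembly and 4 activators, beside Psmc3ip. Of the 3 genes that could not be tested, Psma8, an alpha subunit of the testis, was well above background on 1 array and Psmb11, the catalytic subunit of thymic epithelium, on none of the 12. The base scaffold Psmd1 had its only probe marked as an outlier spot on 1 anti-CD40 array, and its log2 level on the other 11 arrays ranged from 2.33 to 2.58. Levels are processed intensities on the log2 scale, set against the 75th percentile of each array, so that a difference of 1 is a doubling. They compare arrays within a gene, and not 1 gene with another.

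Promoter sequence was searched for 3 motifs, at least 1 of which is read by factors that control proteasome genes. RefSeq promoters of assembly GRCm38.p6, taken as the 250 bases before the start site, matched 34 of the 41 genes by symbol and gave 37 promoters, 3 of the genes having 2. The antioxidant response core TGACNNNGC, the letters that the stress factors NFE2L1 and NFE2L2 read, lay on either strand in 5 of the 37 (13.5%) and in 10.2% of all 32851 promoters of that length. Its holders were Psmb5, Psmb6, Psmc6, Psmd9 and Psmd12. The CCAAT box (CCAAT) was in 14 promoters (37.8%, against 33.8% of all) and the E box CACGTG in 3 (8.11%, against 6.02%), those of Psma4, Psmd9 and Psme3. A match of letters is a description and shows no binding. Shown are the promoters of the 4 genes with the clearest differences from unstimulated cells and that of the catalytic subunit Psmb5, each read 5′ to 3′ along the strand of the gene. They lie at chr7:114276117-114276366 on the minus strand (Psma1), chr9:54950609-54950858 on the plus strand (Psma4), chr14:55591102-55591351 on the minus strand (Psme2), chr11:101315963-101316212 on the plus strand (Psme3) and chr14:54617996-54618245 on the minus strand (Psmb5). Capitals mark the CCAAT box (ATTGG on the opposite strand) in Psma1 and Psme3, the E box in Psma4 and Psme3 and the antioxidant response core in Psmb5. Psme2 held none of these 3 motifs in this window.
Psma1: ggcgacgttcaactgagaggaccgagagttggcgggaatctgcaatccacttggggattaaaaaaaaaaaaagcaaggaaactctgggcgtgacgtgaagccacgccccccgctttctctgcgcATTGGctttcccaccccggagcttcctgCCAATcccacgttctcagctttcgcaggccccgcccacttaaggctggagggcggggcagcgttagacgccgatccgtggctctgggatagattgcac
Psma4: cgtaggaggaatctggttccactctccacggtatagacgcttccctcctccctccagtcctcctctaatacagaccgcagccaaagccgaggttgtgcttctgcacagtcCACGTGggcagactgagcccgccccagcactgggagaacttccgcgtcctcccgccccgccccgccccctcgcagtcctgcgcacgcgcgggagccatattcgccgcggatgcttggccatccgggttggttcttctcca
Psme2: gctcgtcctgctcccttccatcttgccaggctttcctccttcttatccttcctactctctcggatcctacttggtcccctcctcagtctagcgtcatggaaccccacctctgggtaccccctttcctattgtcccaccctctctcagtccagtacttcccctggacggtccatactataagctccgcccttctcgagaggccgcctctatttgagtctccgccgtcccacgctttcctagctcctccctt
Psme3: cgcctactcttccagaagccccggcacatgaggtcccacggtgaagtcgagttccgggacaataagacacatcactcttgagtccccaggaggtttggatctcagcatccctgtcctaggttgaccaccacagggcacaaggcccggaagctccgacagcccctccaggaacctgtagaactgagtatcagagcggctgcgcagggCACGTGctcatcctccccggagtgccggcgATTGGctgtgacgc
Psmb5: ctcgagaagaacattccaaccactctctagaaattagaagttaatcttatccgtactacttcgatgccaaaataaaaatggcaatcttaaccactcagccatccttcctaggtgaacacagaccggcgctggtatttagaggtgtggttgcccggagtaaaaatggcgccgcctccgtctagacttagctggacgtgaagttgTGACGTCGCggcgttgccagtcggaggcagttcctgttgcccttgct

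The arrays lay on 2 slides, and proteasome genes differed between them. On slide 1 were 8 arrays, which were both unstimulated, both of anti-CD40 with Pam2CSK4 and sample 1 of each other group, and on slide 2 were 4 arrays, sample 2 of those other groups. The runs of scanning followed the slides. Slide and sample number cannot be told apart in these 4 groups. With the slide as a term in the fit, 31 of the 38 proteasome genes (81.6%) were lower on slide 2 and none was higher, with a median of -0.30 on the log2 scale, while 38.3% of all 25212 tested genes were lower, at a median of -0.12. Psmc1 differed by -0.50 between the slides and Psmb6 by -0.37, whereas Psmb2 differed by 0.02 and Psmd10 by 0.03 without passing the test. The median SD of a proteasome gene over both arrays of a group was 0.023 in unstimulated cells and 0.039 with anti-CD40 and Pam2CSK4, whose arrays share slide 1, but 0.16 to 0.27 in the 4 groups that span the slides. Each comparison is therefore given without the slide, as in the one-way design of the study, and with the slide as a block. Anti-CD40 with Pam2CSK4 and unstimulated cells are compared within slide 1 in either case.

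**Figure D1:**
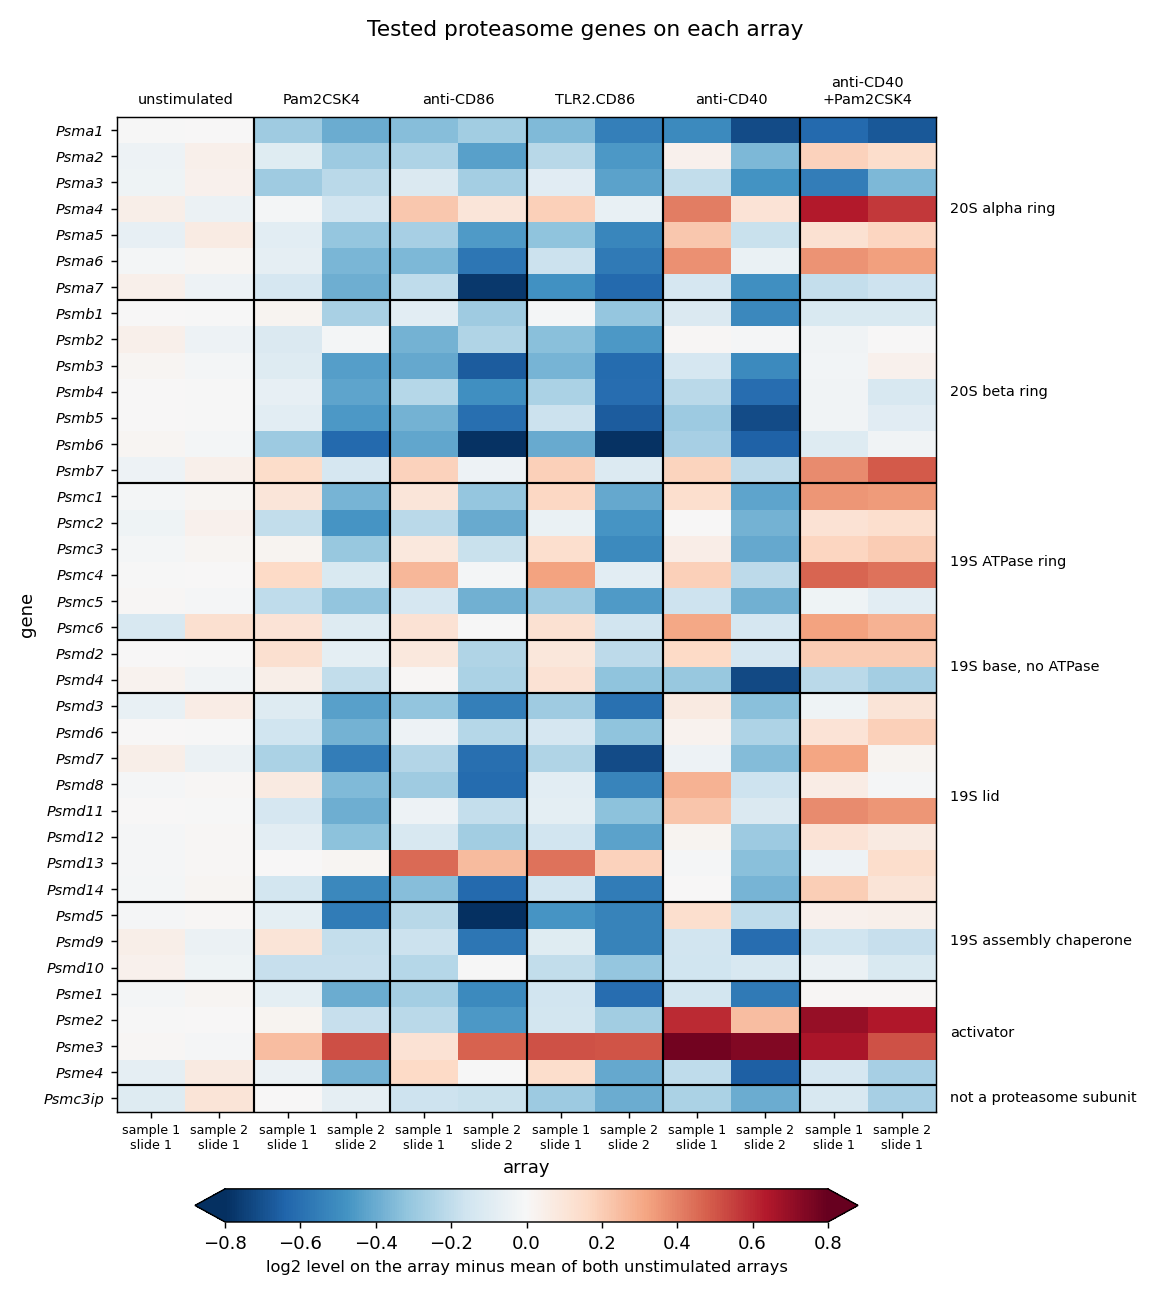
Log2 level of each of the 38 tested genes (rows, by role) on each of the 12 arrays (columns, with sample number and slide) minus the mean of both unstimulated arrays, as colour from -0.8 to 0.8. The slide 2 arrays of Pam2CSK4, anti-CD86, TLR2.CD86 and anti-CD40 are bluer than the slide 1 arrays of the same groups, Psme3 is red in all stimulated groups, and Psma1 is blue in all of them.

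Few proteasome genes passed the test against unstimulated cells without the slide term, and those that did passed it in the groups given anti-CD40. With the slide as a block, genes passed in every stimulated group, as given below with the shares of all genes. Without the slide term no proteasome gene passed with Pam2CSK4 (0.139% of all tested genes did), with anti-CD86 (2.15%) or with TLR2.CD86 (10.7%). At an unadjusted p under 0.05 the counts were 2, 9 and 9 of 38, against 15.8%, 22.9% and 30.4% of all genes. With anti-CD40, 2 of 38 genes passed (5.26%, against 16.9% of all genes), the activator Psme3 higher and the alpha subunit Psma1 lower (6.2% of all genes were higher and 10.7% lower). With anti-CD40 and Pam2CSK4, 4 of 38 passed (10.5%, against 17.8%), Psme2, Psma4 and Psme3 higher and Psma1 lower (8.21% and 9.59% of all genes). Both shares lay under those of all genes. Leaving out an array ended these calls: 0 of 38 passed with anti-CD40 without unstimulated sample 1 or 2 or without anti-CD40 sample 2, and 0 with anti-CD40 and Pam2CSK4 without either array of that group or either unstimulated array. Such a fit leaves 1 array in a group, whose spread is taken to be that of the other groups. The log2 fold changes stayed close in size over all fits without 1 array, at 0.74 to 0.77 for Psme3 and -0.71 to -0.51 for Psma1 with anti-CD40. With anti-CD40 and Pam2CSK4 they were 0.64 to 0.70 for Psme2, 0.55 to 0.65 for Psma4, 0.51 to 0.65 for Psme3 and -0.68 to -0.62 for Psma1. With median normalization of the arrays, or with no filter on dim probes, 0 passed in either comparison.

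The medians of the 38 log2 fold changes from unstimulated cells were -0.20 with Pam2CSK4, -0.28 with anti-CD86, -0.30 with TLR2.CD86, -0.17 with anti-CD40 and 0.04 with anti-CD40 and Pam2CSK4, beside medians over all genes between -0.06 and 0.02. Of the 38 genes, 6, 7, 5 and 10 were above 0 in the first 4 comparisons (42.3%, 45.1%, 47.8% and 50.1% of all genes) and 24 in the last (51.3%). With the slide as a block the first 4 medians moved towards 0, to -0.06, -0.16, -0.17 and -0.01, and the last stayed at 0.04. On slide 1 alone they were -0.08, -0.19, -0.15, 0.01 and 0.04. Within slide 1 the medians with anti-CD86 and TLR2.CD86 stayed below 0, and that with anti-CD40 did not.

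The slide as a block brought 1, 11, 13, 10 and 12 of the 38 genes past the threshold in these 5 comparisons, against 11.0%, 28.1%, 34.8%, 37.1% and 47.3% of all genes. With TLR2.CD86, 10 genes were then lower and 3 higher (20.6% and 14.2% of all genes). The lower ones were Psma1, Psma5, Psma7, Psmb2, Psmb3, Psmb4, Psmb6, Psmc5, Psmd3 and Psmc3ip, and the higher ones Psmc4, Psmd13 and Psme3. With anti-CD86, 8 were lower and 3 higher (16.2% and 11.9% of all genes), and with anti-CD40, 5 were lower and 5 higher (21.6% and 15.5%). With anti-CD40 and Pam2CSK4, 9 were higher and 3 lower (23.7% and 23.5%), the higher ones being Psma4, Psma6, Psmb7, Psmc1, Psmc4, Psmd2, Psmd11, Psme2 and Psme3 and the lower ones Psma1, Psma3 and Psmd4.

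**Figure D2:**
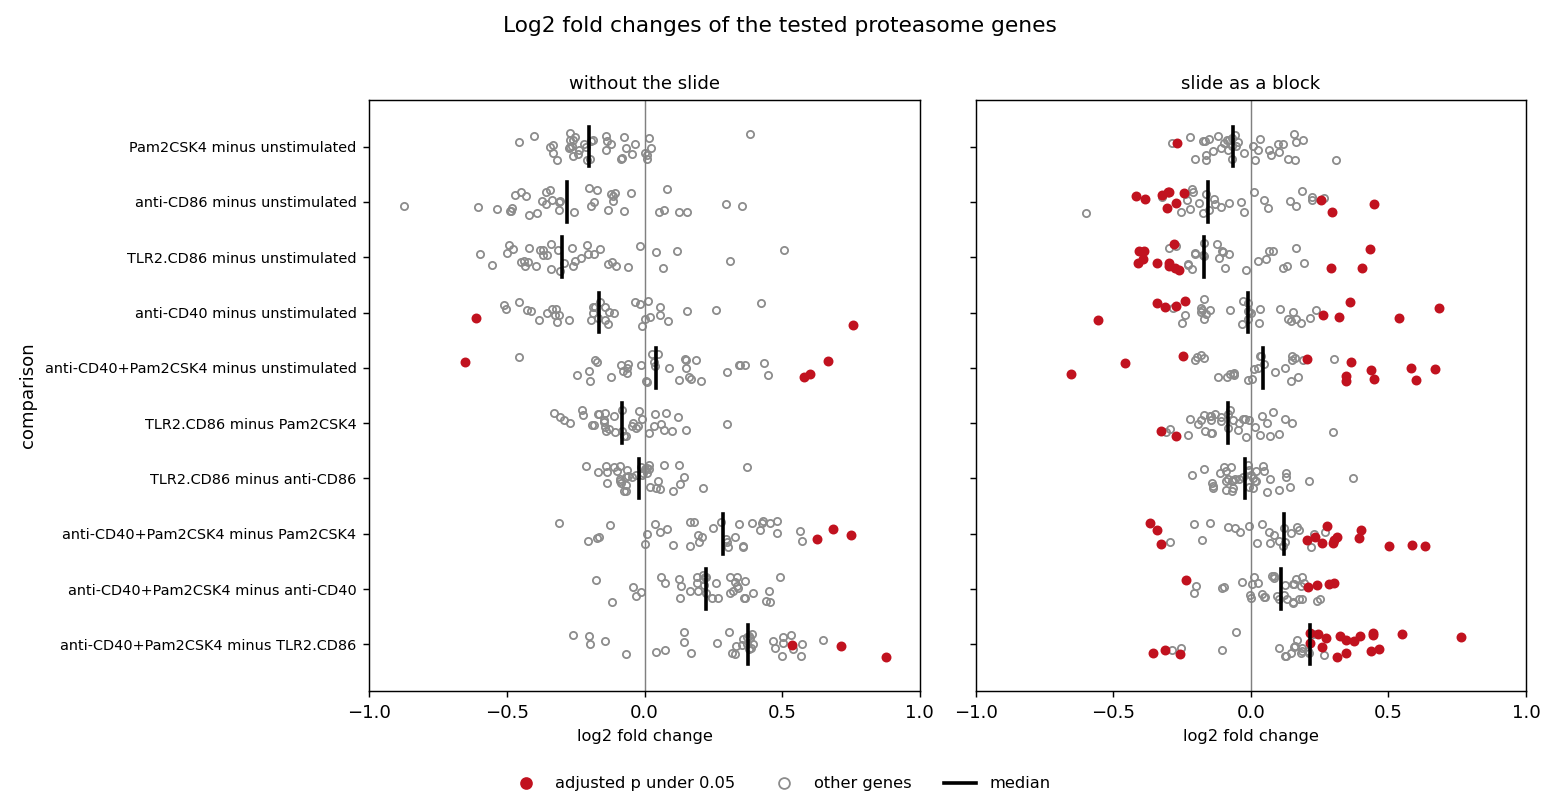
Log2 fold change (x axis) of the 38 tested genes in 10 comparisons (rows), without the slide in the fit (left) and with it as a block (right), where each point is a gene, red points passed an adjusted p of 0.05 and the bar is the median. The medians of the first 4 rows move from between -0.30 and -0.17 on the left to between -0.17 and -0.01 on the right.

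Among the activators, Psme2 and Psme3 rose and Psme1 and Psme4 did not pass the test. Psme3 encodes PA28 gamma, the nuclear gate opener. Its log2 level was 0.77 and 0.75 in unstimulated cells, 1.01 and 1.28 with Pam2CSK4, 0.87 and 1.23 with anti-CD86, 1.27 and 1.26 with TLR2.CD86, 1.53 and 1.5 with anti-CD40 and 1.41 and 1.27 with anti-CD40 and Pam2CSK4. All 10 stimulated arrays lay above both unstimulated arrays. The log2 fold change was 0.76 with anti-CD40 (95% interval 0.42 to 1.1, adjusted p = 0.016), a rise of 69.0%, and 0.58 with anti-CD40 and Pam2CSK4 (0.24 to 0.92, adjusted p = 0.030). With TLR2.CD86 it was 0.51 (0.17 to 0.85, adjusted p = 0.065), and this one passed the threshold when blocked by slide (0.43, adjusted p = 0.029). Psme3 was 1 of the few members that were not lower on slide 2 (0.15, adjusted p = 0.15).

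Psme2 encodes PA28 beta, which forms with PA28 alpha the interferon-inducible cap linked to antigen presentation. Its log2 level was 6.99 and 7.0 in unstimulated cells, 7.01 and 6.81 with Pam2CSK4, 6.78 and 6.53 with anti-CD86 and 6.85 and 6.72 with TLR2.CD86. It was 7.59 and 7.24 with anti-CD40 and 7.69 and 7.63 with anti-CD40 and Pam2CSK4, and these 4 arrays lay above all others. The log2 fold change with anti-CD40 and Pam2CSK4 was 0.67 from unstimulated cells (0.32 to 1.02, adjusted p = 0.020), 0.75 from Pam2CSK4 (0.40 to 1.1, adjusted p = 0.021) and 0.88 from TLR2.CD86 (0.53 to 1.23, adjusted p = 0.010). With anti-CD40 alone it was 0.42 (0.07 to 0.77, adjusted p = 0.094), and 0.54 when blocked by slide (adjusted p = 0.0016). Median normalization, which moved the median of all genes to -0.57 in this comparison, turned it to -0.15. Its other probe gave 0.68 from unstimulated cells and 0.79 from TLR2.CD86 for anti-CD40 with Pam2CSK4 (adjusted p = 0.016 and 0.012). RefSeq lists a copy, Psme2b, that had no probe of its own here, and RNA of the copies cannot be told apart on these probes.

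Psme1, the PA28 alpha partner of Psme2, kept a log2 level of 5.91 and 5.94 in unstimulated cells and 5.94 and 5.93 with anti-CD40 and Pam2CSK4. The other groups lay at 5.66 to 5.85 on slide 1 and at 5.32 to 5.53 on slide 2. The log2 difference between anti-CD40 with Pam2CSK4 and unstimulated cells was 0.01 with an interval of -0.46 to 0.48. Psme4, the activator PA200, ranged from 3.91 (anti-CD40, slide 2) to 4.72 (anti-CD86, slide 1), with 4.49 and 4.63 in unstimulated cells, and its fold changes from them ran from -0.43 to 0.08. Both anti-CD40 arrays (4.36 and 3.91) and those of anti-CD40 with Pam2CSK4 (4.43 and 4.29) lay below the unstimulated arrays, while the other groups overlapped with them. These values of Psme4 are those of its brightest probe. Another probe was at -0.26 and -0.21 with anti-CD86, above -0.54 and -0.63 in unstimulated cells. A further probe was at -2.81 and -2.30 with anti-CD86 and overlapped with unstimulated cells (-3.00 and -2.76).

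**Figure D3:**
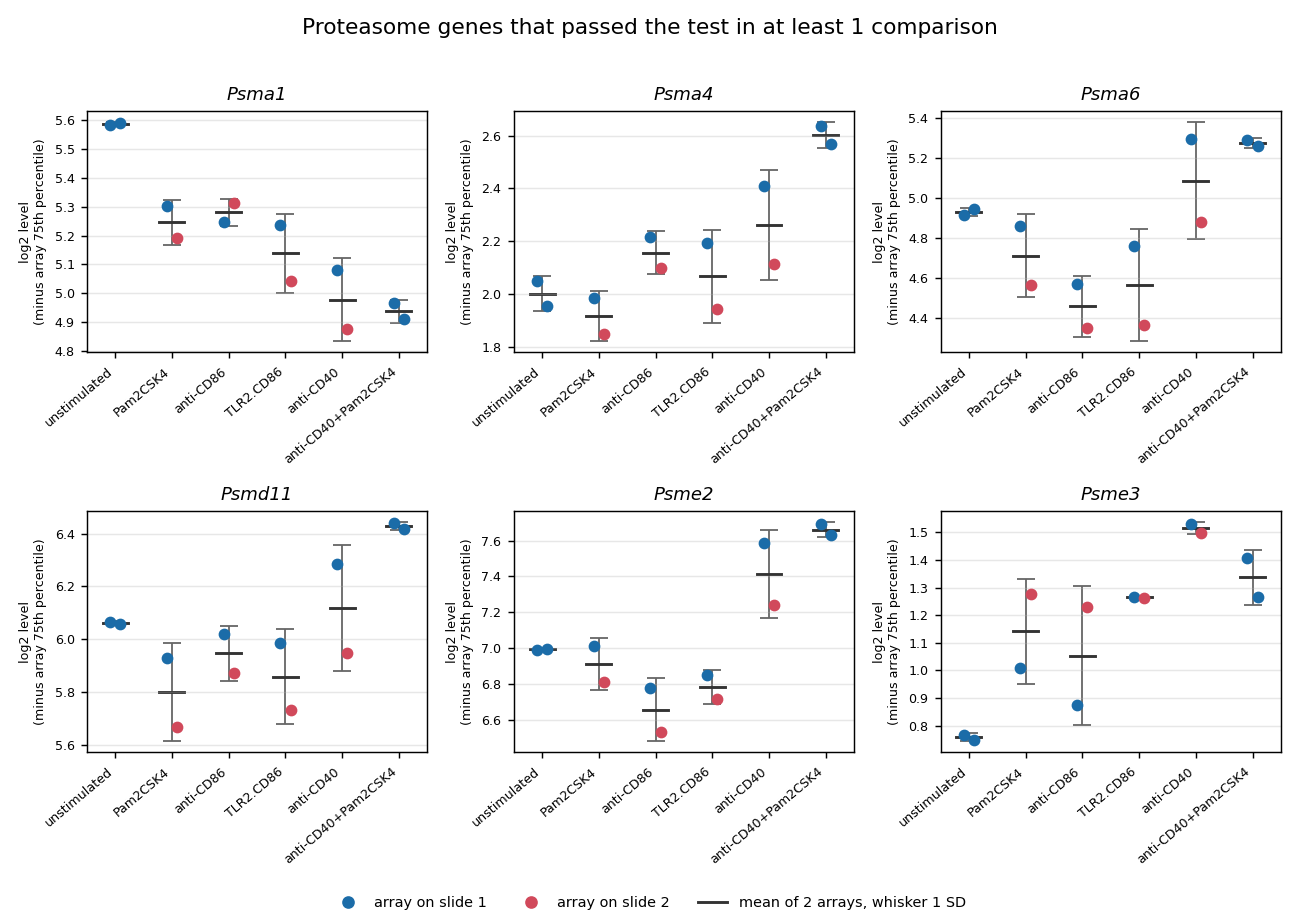
Log2 level (y axis, relative to the 75th percentile of each array) of the 6 genes that passed the test in at least 1 comparison, by group (x axis), with a point per array coloured by slide, the mean as a bar and 1 SD as whiskers. Psme2 and Psme3 are highest with anti-CD40, with or without Pam2CSK4, and Psma1 is lowest there.

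The alpha ring, which forms the gate of the core, held a gene that fell and a gene that rose. Psma1 had log2 levels of 5.58 and 5.59 in unstimulated cells, 5.30 and 5.19 with Pam2CSK4, 5.25 and 5.31 with anti-CD86, 5.24 and 5.04 with TLR2.CD86, 5.08 and 4.87 with anti-CD40 and 4.96 and 4.91 with anti-CD40 and Pam2CSK4. All 10 stimulated arrays lay below the unstimulated ones. The gene fell by 0.61 on the log2 scale with anti-CD40 (interval -0.89 to -0.34, adjusted p = 0.016) and fell by 0.65 with anti-CD40 and Pam2CSK4 (-0.93 to -0.38, adjusted p = 0.0085), a change of -36.4%. With TLR2.CD86 the difference of -0.45 (-0.73 to -0.17) just missed the threshold at an adjusted p of 0.051, and it passed when blocked by slide (-0.39, adjusted p = 0.011). Psma1 differed little between the slides (-0.11, adjusted p = 0.12).

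Psma4 rose with anti-CD40 and Pam2CSK4. Its log2 level was 2.05 and 1.95 in unstimulated cells, 1.98 and 1.85 with Pam2CSK4, 2.21 and 2.10 with anti-CD86, 2.19 and 1.94 with TLR2.CD86, 2.41 and 2.11 with anti-CD40 and 2.64 and 2.57 with anti-CD40 and Pam2CSK4. Both arrays of the last group lay above the 10 others. The log2 fold change of that group was 0.60 from unstimulated cells (0.27 to 0.93, adjusted p = 0.023), 0.69 from Pam2CSK4 (0.36 to 1.01, adjusted p = 0.022) and 0.53 from TLR2.CD86 (0.21 to 0.86, adjusted p = 0.047). The other probe of Psma4 gave 0.67 from unstimulated cells (adjusted p = 0.046) and 0.60 from TLR2.CD86 (adjusted p = 0.082). The difference from TLR2.CD86 was 0.41 within slide 1 (adjusted p = 0.051), where TLR2.CD86 has its sample 1 only.

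Psma6 was at 4.92 and 4.95 in unstimulated cells and at 5.29 and 5.26 with anti-CD40 and Pam2CSK4, a difference of 0.34 that did not pass (interval -0.10 to 0.79, adjusted p = 0.25). With TLR2.CD86 it was at 4.76 and 4.37, and the difference between both combinations, 0.71, passed narrowly (0.27 to 1.15, adjusted p = 0.049). Without TLR2.CD86 sample 2 it was 0.51 (adjusted p = 0.24). With anti-CD40 alone its slide 1 array stood at 5.29 and its slide 2 array at 4.88. The rest of the ring, Psma2, Psma3, Psma5 and Psma7, did not pass in any comparison without the slide term. Psma7 lay lowest with anti-CD86 on slide 2 (5.26, against 6.07 and 5.99 in unstimulated cells), and Psma3 was at 3.28 and 3.47 with anti-CD40 and Pam2CSK4 against 3.80 and 3.87, a difference of -0.46 with an adjusted p of 0.085, or 0.016 when blocked by slide.

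No subunit of the beta ring, the proteolytic part, passed the test in any comparison without the slide term. Psmb5, the chymotrypsin-like site, had log2 levels of 4.34 and 4.33 in unstimulated cells, 4.25 and 3.88 with Pam2CSK4, 3.96 and 3.73 with anti-CD86, 4.16 and 3.67 with TLR2.CD86, 4.05 and 3.62 with anti-CD40 and 4.31 and 4.24 with anti-CD40 and Pam2CSK4. All 10 stimulated arrays lay under the unstimulated ones, and the slide 2 array of each group that spans the slides lay below its slide 1 array. The fold changes from unstimulated cells ran from -0.50 with anti-CD40 (interval -1.0 to -0.01, adjusted p = 0.14) to -0.06 with anti-CD40 and Pam2CSK4 (-0.56 to 0.43). Blocked by slide, Psmb5 was lower with anti-CD86 (-0.30, adjusted p = 0.029) and with anti-CD40 (-0.31, adjusted p = 0.019).

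Psmb6, the caspase-like site, was at 5.86 and 5.83 in unstimulated cells and at 5.74 and 5.81 with anti-CD40 and Pam2CSK4. On slide 1 it was at 5.55 with Pam2CSK4, 5.43 with anti-CD86, 5.44 with TLR2.CD86 and 5.57 with anti-CD40, and on slide 2 at 5.22, 5.05, 5.05 and 5.19 in the same order. The fold changes of these 4 groups from unstimulated cells were -0.46, -0.60, -0.60 and -0.46, with adjusted p-values of 0.33, 0.14, 0.098 and 0.16. Blocked by slide they were -0.27, -0.42, -0.41 and -0.27, and all 4 passed (adjusted p = 0.030, 0.0037, 0.0026 and 0.0087). With anti-CD40 and Pam2CSK4 the difference was -0.07 (interval -0.54 to 0.41, adjusted p = 0.88).

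Psmb7, the trypsin-like site, stood apart from the other catalytic subunits. It was at 2.44 and 2.52 in unstimulated cells and at 2.86 and 2.97 with anti-CD40 and Pam2CSK4, the highest arrays of the 12, while the other groups lay at 2.63 to 2.67 on slide 1 and 2.27 to 2.44 on slide 2. The difference of 0.44 had an interval of 0.02 to 0.85 and an adjusted p of 0.13, and passed when blocked by slide (adjusted p = 0.0024). Of the structural beta subunits, Psmb2 hardly differed between slides and was at 0.76 and 0.67 in unstimulated cells against 0.38 and 0.26 with TLR2.CD86. Its difference of -0.40 (-0.64 to -0.15) had an adjusted p of 0.054, or 0.010 when blocked by slide. Psmb1, Psmb3 and Psmb4 had differences from unstimulated cells between -0.54 and 0.01.

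**Figure D4:**
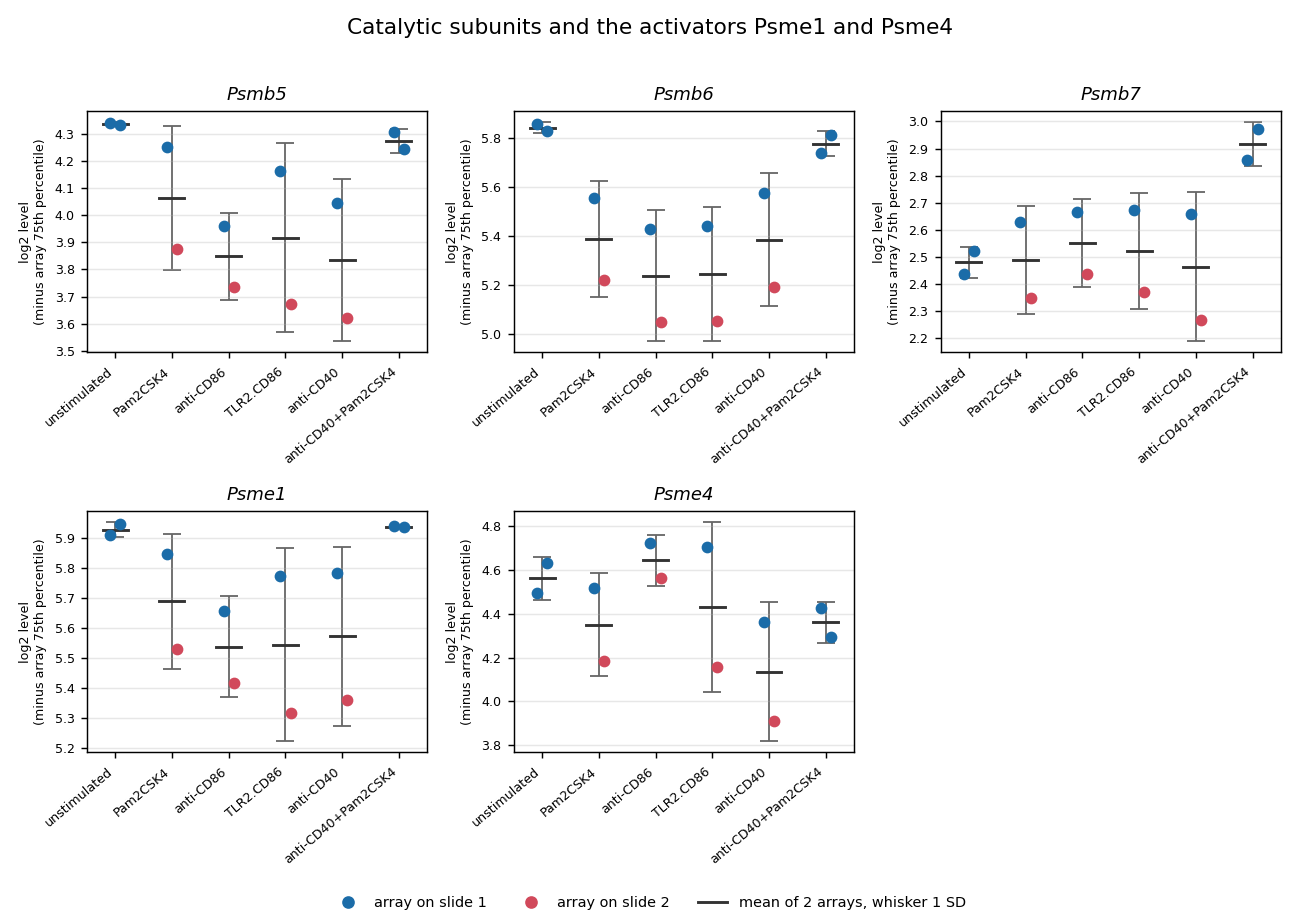
Log2 level (y axis, relative to the 75th percentile of each array) of the catalytic subunits Psmb5, Psmb6 and Psmb7 and of the activators Psme1 and Psme4 by group (x axis), with a point per array coloured by slide, the mean as a bar and 1 SD as whiskers. In the 4 groups that span the slides the slide 2 array lies below the slide 1 array for all 5 genes.

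The 6 ATPases, which unfold the substrate, did not pass in any comparison without the slide term. With anti-CD40 and Pam2CSK4, 5 of the 6 were above unstimulated cells, at a median of 0.24, and in the other 4 groups 1 or 2 of 6 were, at medians of -0.16 to -0.08. Psmc4 reached 4.52 and 4.49 with anti-CD40 and Pam2CSK4 against 4.06 and 4.06 in unstimulated cells, and Psmc1 reached 4.42 and 4.40 against 4.05 and 4.08. The differences, 0.45 and 0.35, had adjusted p-values of 0.15 and 0.42, and of 0.0010 and 0.0035 when blocked by slide. The pair of base subunits without ATPase activity differed in sign in the groups given anti-CD40. With anti-CD40 alone, however, Psmd2 differed from unstimulated cells by only 0.01 (4.69 and 4.40). Psmd4, a ubiquitin receptor, was at 3.86 and 3.44 with anti-CD40 and at 3.94 and 3.88 with anti-CD40 and Pam2CSK4, below 4.19 and 4.13 in unstimulated cells, and Psmd2 was at 4.74 and 4.74 with anti-CD40 and Pam2CSK4 against 4.54 and 4.53. Neither passed without the slide term (adjusted p = 0.11 for Psmd4 with anti-CD40 and 0.45 for Psmd2 with anti-CD40 and Pam2CSK4).

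Among the lid subunits, 1 gene passed in 1 comparison without the slide term. Psmd11, which is linked to the level of assembled 26S particles, was at 6.07 and 6.06 in unstimulated cells, 5.93 and 5.67 with Pam2CSK4, 6.02 and 5.87 with anti-CD86, 5.99 and 5.73 with TLR2.CD86, 6.29 and 5.95 with anti-CD40 and 6.44 and 6.42 with anti-CD40 and Pam2CSK4. Both arrays of the last group were the highest of the 12. It rose by 0.63 on the log2 scale over Pam2CSK4 (interval 0.26 to 0.99, adjusted p = 0.044; 0.50 and 0.24 without Pam2CSK4 sample 2), while the differences of 0.37 from unstimulated cells and 0.57 from TLR2.CD86 had adjusted p-values of 0.15 and 0.054. By their brightest probes all 8 lid subunits were above 0 with anti-CD40 and Pam2CSK4, between 0.03 and 0.37, and 1 of 8 with Pam2CSK4, anti-CD86 or TLR2.CD86.

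The exception with anti-CD86 and TLR2.CD86 was Psmd13. It was at -0.05 and -0.04 in unstimulated cells, 0.41 and 0.20 with anti-CD86 and 0.38 and 0.14 with TLR2.CD86, and between -0.38 and 0.09 in the other groups, so that the 4 arrays with antibody to CD86 were the highest of the 12. Its differences of 0.35 and 0.31 from unstimulated cells did not pass (adjusted p = 0.21 for either) and passed when blocked by slide (0.45 and 0.40, adjusted p = 0.021 and 0.024). Psmd14, the deubiquitinase of the lid, was at 4.70 and 4.74 in unstimulated cells and at 4.91 and 4.83 with anti-CD40 and Pam2CSK4 (difference 0.15, interval -0.32 to 0.62). The other probe of Psmd14 went the other way, at 2.84 and 2.95 in unstimulated cells and 2.74 and 2.76 with anti-CD40 and Pam2CSK4.

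The 3 chaperones of 19S assembly did not pass in any comparison without the slide term. Psmd5 had the widest spread of the 38 tested genes, at 2.51 and 1.21 with anti-CD86 (SD 0.92), which left its difference of -0.87 from unstimulated cells at an adjusted p of 0.20. Psmd10, also known as gankyrin, varied between 0.85 and 1.19 over the 12 arrays. Psmc3ip, which is no subunit, lay at 0.01 and 0.22 in unstimulated cells and between -0.28 and 0.12 elsewhere. Its differences, of -0.34 to -0.03, did not pass without the slide term. Blocked by slide, it was lower with TLR2.CD86 (-0.30). The other probe of Psmc3ip gave differences from unstimulated cells of -0.08 to 0.10. With TLR2.CD86 that probe gave 0.05 when blocked by slide (adjusted p = 0.75).

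Anti-CD40 with Pam2CSK4 was also set against each other stimulation, to ask whether CD40 and CD86 differ as partners of Toll-like receptor 2. Against Pam2CSK4 alone, 3 of 38 genes passed, Psme2, Psma4 and Psmd11, all higher (7.89%, against 6.31% of all genes higher and 9.49% in either direction). Against anti-CD40 alone none passed (2.89% of all genes did), with 3 at an unadjusted p under 0.05 (19.6% of all genes). Against TLR2.CD86, 3 passed, Psme2, Psma6 and Psma4, all higher (7.89%, against 7.08% of all genes higher and 11.8% in either direction). The medians were 0.29, 0.22 and 0.38, and 33 of 38 genes were above 0 in each of the 3 comparisons (51.8%, 53.6% and 52.2% of all genes). The arrays of 31 of 38 genes lay wholly above those of TLR2.CD86 (34.7% of all genes did).

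With the slide as a block the medians of these 3 comparisons were 0.12, 0.11 and 0.21. Against TLR2.CD86 the block left 17 genes higher and 3 lower (44.7% and 7.89%, against 19.3% and 14.7% of all genes, 34.0% in all). The 17 comprised 4 of the alpha ring, 4 of the beta ring, 2 ATPases, 6 of the lid and Psme2, and the lower ones were Psma1, Psmd4 and Psmd13. Against Pam2CSK4 it left 12 higher and 3 lower (17.0% and 14.2% of all genes, 31.2% in all), and against anti-CD40 alone 4 higher and 1 lower (8.65% and 6.27%, 14.9% in all). Within slide 1 the medians were 0.14, 0.07 and 0.18. These 3 comparisons share the arrays of anti-CD40 with Pam2CSK4. Without either of those arrays no gene passed in any of the 3, and without TLR2.CD86 sample 2 none passed against TLR2.CD86, nor against Pam2CSK4 without either of its arrays.

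TLR2.CD86 did not differ from its single signals in any proteasome gene at the threshold, with medians of -0.08 from Pam2CSK4 and -0.02 from anti-CD86 (0.0754% and 0.238% of all genes passed). At an unadjusted p under 0.05 there were 2 genes and none (10.2% and 8.77% of all genes). With the slide as a block Psmb2 (-0.33, adjusted p = 0.045) and Psmd9 (-0.27, adjusted p = 0.045) were lower than with Pam2CSK4 (10.7% of all genes passed then), and none differed from anti-CD86 (7.96%). The interaction, which is the log2 effect of a combination minus the sum of the effects of its parts, was called for no proteasome gene with either partner (0.0238% of all genes with anti-CD86 and 1.24% with anti-CD40). At an unadjusted p under 0.05 there were 0 and 10 genes (4.33% and 19.6% of all genes). For anti-CD86 and Pam2CSK4 its median was 0.16, with 28 of 38 genes above 0 (58.6% of all genes). Blocked by slide it was 0.039 with 21 of 38 above 0, beside 0.049 over all genes, and within slide 1 it was 0.059. For anti-CD40 and Pam2CSK4 the median was 0.43, with 37 of 38 above 0 and only Psme3 below (-0.56, adjusted p = 0.22), against a median of 0.14 and 58.5% above 0 over all genes. With the slide as a block the median was 0.10 with 30 of 38 above 0, beside 0.066 over all genes, and within slide 1 it was 0.10. In the blocked fit 1 gene, Psmb6, passed (0.48, adjusted p = 0.022, against 8.54% of all genes).

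For 13 genes several probes were on the array. Of the 14 other tested probes, 10 had the sign of the brightest probe for anti-CD40 with Pam2CSK4 when compared with unstimulated cells, and 13 when compared with TLR2.CD86. The count was lowest, 8 of 14, for TLR2.CD86 against Pam2CSK4, and was 9 for anti-CD86 against unstimulated cells. There the probes of the base subunit Psmd2 differed most, at -0.08 for the brightest and 0.50 for the other (adjusted p = 0.82 and 0.23), or 0.06 and 0.70 when blocked by slide (adjusted p = 0.43 and 0.0028). The probes disagreed for the lid subunit Psmd12, whose brightest probe gave 0.09 for the first comparison (adjusted p = 0.76) and whose other probes gave 0.48 (adjusted p = 0.016) and 0.00 (adjusted p = 0.99). For Psmd7 the brightest probe gave 0.17 and the other 0.66 (adjusted p = 0.66 and 0.090). For Psmd9 with anti-CD40 the brightest probe gave -0.38 and the other -0.87, which passed (adjusted p = 0.26 and 0.043).

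The rest of the pathway was followed in a list of its own. Of 26 tested genes for core assembly, associated proteins, regulators, shuttle factors, ubiquitin and its handling, 0 passed with Pam2CSK4, 1 with anti-CD86, 2 with TLR2.CD86, 5 with anti-CD40 and 4 with anti-CD40 and Pam2CSK4, at medians of -0.21, -0.17, -0.28, -0.13 and 0.06. The shares of all genes were 0.139%, 2.15%, 10.7%, 16.9% and 17.8% in that order. Of those that passed, 4 were lower with anti-CD40 and 2 with anti-CD40 and Pam2CSK4 (10.7% and 9.59% of all genes were lower). Blocked by slide, 2 were higher and 1 lower, 3 and 8, 2 and 13, 2 and 8, and 11 and 6 (11.0%, 28.1%, 34.8%, 37.1% and 47.3% of all genes in either direction). The shuttle factor Ubqln4 was higher in 4 groups, by 0.58 to 0.78, and differed by 0.30 with Pam2CSK4 (adjusted p = 0.31, or 0.026 when blocked by slide). Other shuttle factors were called lower. They were Ubqln2 with anti-CD40 (mean -0.92, against -0.47 in unstimulated cells) and Ubqln1 with anti-CD40 and Pam2CSK4 (5.92, against 6.40). Nfe2l2 (5.38, against 5.77) and Ufd1l (1.29, against 1.75) were called lower with anti-CD40. Ngly1, the glycanase that activates NFE2L1, was lower with TLR2.CD86 (-0.93, adjusted p = 0.011), anti-CD40 (-0.56, adjusted p = 0.022) and anti-CD40 with Pam2CSK4 (-0.63, adjusted p = 0.011). Psmg2, a chaperone of the alpha ring, rose by 0.69 with anti-CD40 and Pam2CSK4 (adjusted p = 0.023). Between the combinations, 5 of 26 were higher with anti-CD40 and Pam2CSK4 than with TLR2.CD86 and none lower without the slide term (7.08% of all genes were higher and 11.8% in either direction): Psmg2 (0.78), the shuttle factor Rad23b (0.73), Nfe2l1 (0.56), which encodes a transcription factor of proteasome genes, Psmg1 (0.46) and Ubqln2 (0.45). Blocked by slide, 11 were higher and 1, the ubiquitin-activating enzyme Uba1, lower (-0.48, adjusted p = 0.011), against 19.3% and 14.7% of all genes.

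The 3 immunoproteasome genes, the interferon-inducible catalytic subunits that replace Psmb5, Psmb6 and Psmb7, differed from unstimulated cells by -0.99 (Psmb10, adjusted p = 0.012), -0.89 (Psmb8, adjusted p = 0.028) and -0.75 (Psmb9, adjusted p = 0.070) with anti-CD40, so that Psmb10 and Psmb8 fell. With anti-CD40 and Pam2CSK4 the differences were -0.60, -0.39 and -0.11 in the same order, and none passed. Blocked by slide, Psmb10 and Psmb8 passed there (adjusted p = 0.00024 and 0.0040), all 3 passed with anti-CD40, and Psmb10 passed with anti-CD86 (-0.27, adjusted p = 0.015) and TLR2.CD86 (-0.42, adjusted p = 0.0025).

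The cells carried the B cell markers Cd79a, Cd79b, Ms4a1, Cd22 and Pax5 well above background on all 12 arrays. Markers of other cells were also measured: 3 of 4 T cell, 4 of 4 myeloid, 2 of 3 NK cell and both plasma cell markers were well above background on all arrays, as were the red cell genes Alas2 and Hbb-b1. The mean log2 level of the myeloid markers was 0.47 to 0.50 in unstimulated cells, 0.36 to 0.54 with Pam2CSK4, 0.04 to 0.28 with anti-CD86, 0.04 to 0.31 with TLR2.CD86, 0.00 to 0.12 with anti-CD40 and 0.06 to 0.12 with anti-CD40 and Pam2CSK4. That of the NK markers was -0.39 to -0.36 in unstimulated cells and -0.85 to -0.73, -1.31 to -0.74, -1.15 to -0.86, -0.81 to -0.77 and -1.15 to -1.09 in the stimulated groups in the same order. The plasma cell markers were at 0.61 to 0.64 in unstimulated cells and at 0.39 to 0.62, 0.54 to 0.57, 0.07 to 0.52, -0.23 to 0.06 and -0.01 to 0.22. Mean Prdm1 was -0.22 in unstimulated cells, -0.63 with anti-CD40 and -0.30 with anti-CD40 and Pam2CSK4. The T cell markers were at -0.64 to -0.42 in unstimulated cells and at -0.51 to -0.44, -0.58 to -0.49, -0.67 to -0.32, -0.52 to -0.43 and -0.65 to -0.62. Without the slide term Prdm1 and the T cell and red cell markers were not called against unstimulated cells. Against unstimulated cells Csf1r and Itgam were called with TLR2.CD86 and with anti-CD40 and Pam2CSK4, Klrb1c with these and with anti-CD40, Nkg7 with TLR2.CD86 and anti-CD40, and Sdc1 with anti-CD40 with or without Pam2CSK4, all lower. The myeloid markers Lyz2 and Cd14 were not called against unstimulated cells without the slide term. Mean Lyz2 was 0.59 in unstimulated cells, 0.93 with TLR2.CD86 and 0.48 with anti-CD40 and Pam2CSK4. Mean Cd14 was 3.01, 2.95 and 3.04 in the same order, and 3.38 with Pam2CSK4, 2.42 with anti-CD86 and 2.31 with anti-CD40. Blocked by slide, Lyz2 was higher with TLR2.CD86, and Cd14 was higher with Pam2CSK4 and lower with anti-CD86 and with anti-CD40. In that fit Alas2 and Hbb-b1 were higher with TLR2.CD86. Hbb-b1 was also higher with anti-CD40 and Pam2CSK4 and lower with anti-CD86. Cd8a was lower with TLR2.CD86 and with anti-CD40 with or without Pam2CSK4. With TLR2.CD86 Cd4 was higher and Prdm1 lower, and with anti-CD86 Sdc1 was higher. The part of these shifts in the values of the proteasome genes was not tested. In RNA of a whole sample, fewer cells of a type and less RNA per cell cannot be told apart.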

How the data were processed

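RNA of 12 samples was hybridised in 1 colour (Cy3) to a custom Agilent mouse array. The deposited scanner files hold spot intensity extracted with Feature Extraction 10.5.1.1, and a table deposited by the authors holds log2 values that equalled the scanner values minus a constant per array. Of the 61657 spots of an array, 46.6% to 60.6% were well above background, 5 to 35 were outlier spots and were left out, and 987 to 1204 were saturated. No proteasome probe was saturated.

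The log2 of processed intensity, less that of each array's 75th percentile, was averaged over the spots of a probe. Of 61307 probes, 31669 passed the scanner's background flag on both arrays of some group, 68 of them were left out for a missing value and 31601 were tested with limma 3.58.1 (R 4.3.3), with 1 coefficient per group, 6 residual degrees of freedom, Benjamini-Hochberg adjustment over all tested probes and calls at an adjusted p under 0.05. Adjusted p-values in the text are from this fit unless another fit is named, and intervals cover 95%. Each gene was given by its brightest tested probe, so that percentages of all genes refer to 25212 genes. Fits were tested on simulated data. The number of arrays limits the precision.

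Alternatives tried were normexp (offset 50), quantile and median normalization, no filter on dim probes, the mean over probes, the replicate number or the slide as a block, each slide alone and leaving out each array. Keeping probes with a missing value was added after seeing the data. Members and lists were chosen with earlier results of these data known. Named with values were the catalytic subunits, the activators, the untested genes and up to 10 called genes per comparison, and the other genes named were chosen after their values were seen. RefSeq (GRCm38.p6) served for names and promoters. No coordinates of the array were used. Some marker genes are not reported here.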

Additional observations from a re-analysis of the deposited data

How the results depend on the processing

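The fold changes called without the slide term kept their direction under all alternatives, and each lost its call under some of them. Others turned. With anti-CD40 alone, median normalization turned Psme2 from 0.42 to -0.15, Psma4 from 0.26 to -0.31 and Psma6 from 0.16 to -0.41. In that comparison these genes were called with the slide as a block and not without it. The cause was not tested. The counts of proteasome genes called were 0 with Pam2CSK4, anti-CD86 and TLR2.CD86, 2 with anti-CD40 and 4 with anti-CD40 and Pam2CSK4 against unstimulated cells, and 3 for anti-CD40 with Pam2CSK4 against Pam2CSK4 and 3 against TLR2.CD86. The last 4 counts were 0 with median normalization and 0 with no filter on dim probes, and the mean over probes left 1 against TLR2.CD86. Normexp gave 3 with TLR2.CD86, 5 against Pam2CSK4 and 6 against TLR2.CD86. Quantile normalization gave 1 with TLR2.CD86, 4 with anti-CD40, 8 with anti-CD40 and Pam2CSK4, 6 against Pam2CSK4 and 6 against TLR2.CD86. Slide 1 alone gave 7, 5, 12, 5 and 8 in that order, where Pam2CSK4, anti-CD86, TLR2.CD86 and anti-CD40 have 1 array each, taken to vary like the other groups. The slide as a block gave 1 with Pam2CSK4, 11 with anti-CD86, 13, 10, 12, 15 and 20 in that order, 5 against anti-CD40, 2 for TLR2.CD86 against Pam2CSK4 and 1 for the interaction of anti-CD40 and Pam2CSK4. The replicate number as a block gave 3 with anti-CD86, 9 with TLR2.CD86, 6 with anti-CD40, 6 with anti-CD40 and Pam2CSK4, 7 against Pam2CSK4, 11 against TLR2.CD86 and 1 for that interaction. Same-numbered samples share only a number (correlation of their deviations -0.11 to 0.67 over 15 pairs of groups, 6 of them over 0.1), and in 4 groups the number is also the slide.

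Leaving out 1 array gave counts of 0 to 1 with TLR2.CD86, 0 to 2 with anti-CD40, 0 to 4 with anti-CD40 and Pam2CSK4, 0 to 3 against Pam2CSK4 and 0 to 6 against TLR2.CD86. The medians that turned were those with anti-CD40 (0.0076 on slide 1 alone and -0.35 to 0.0076 without 1 array), with anti-CD40 and Pam2CSK4 (-0.067 with median normalization), and for TLR2.CD86 against Pam2CSK4 (-0.23 to 0.076 without 1 array) and against anti-CD86 (0.027 on slide 1 alone and -0.18 to 0.16 without 1 array). Psmb7 with TLR2.CD86 turned to -0.25 with median normalization (-0.11 to 0.19 without 1 array). Psme4 with TLR2.CD86 turned to 0.073 with the mean over probes, 0.011 with quantile normalization, 0.14 on slide 1 alone and 0.054 with the slide as a block (-0.41 to 0.14 without 1 array), and between the combinations to 0.11 with median normalization (-0.34 to 0.21 without 1 array). Median normalization moved the median of all genes to -0.25, -0.20, -0.31, -0.57 and -0.09 in the 5 comparisons with unstimulated cells, and to 0.10, 0.49 and 0.21 for anti-CD40 with Pam2CSK4 against Pam2CSK4, anti-CD40 and TLR2.CD86, so that the value of Psme4 there lay below that of all genes as before. Slide 2 alone has 1 array per group and gave values with no test.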
